A study of Mus musculus with 2 samples.

Results

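The 37 genes described here encode enzymes and carriers that handle foreign chemicals and reactive oxygen in lung. They were taken by symbol from the 32285 genes of the matrices, and all 37 were found once in both libraries. By role, 12 form a group of enzymes that oxidise or reduce foreign chemicals, in which the epoxide hydrolase Ephx1 was also counted. A further 8 encode conjugating enzymes, 7 belong to the inducible glutathione, thioredoxin and haem defence, and 10 remove superoxide or peroxides. They were described in secretory, alveolar, endothelial, fibroblast and macrophage cell classes of mouse lung.

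The lungs came from C57BL/6 mice labelled SP-CI73T mutant, which carry a mutant surfactant protein C, a protein made by alveolar type 2 (AT2) cells, so both libraries share the mutation. Tamoxifen, given once by gavage at 175 mg/kg, cuts out a neomycin cassette so that more of the mutant protein is made. The series sets steady state beside day 14 after injury. There was 1 library titled injured and 1 titled control, each of lavaged, perfused and collagenase-digested whole lung. Titles and treatment tags conflict: "untreated" is the tag on the injured title, and "tamoxifen treated" the tag on the control title. Groups follow the titles, so "injured" and "control" below mean the libraries so titled. The age, sex and number of animals behind each library were not given in the sources used here. Neither group had a second library, so no test across samples could be made, and every interval below is a 95% interval that covers counting error only.

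Foreign chemicals are typically oxidised first by cytochromes P450 and flavin monooxygenases and then joined to glutathione, sulfate or another group, which makes them easier to excrete. In lung these enzymes are best known from airway secretory (club) cells, which use Cyp2f2, while the same cells and AT2 cells meet oxygen directly. The transcription factor Nrf2 drives Gclc, Gclm, Txnrd1, Srxn1, Slc7a11, Nqo1 and Hmox1 through antioxidant response elements, and the aryl hydrocarbon receptor drives Cyp1a1 and Cyp1b1 through xenobiotic response elements.

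After filtering, 2302 injured and 2298 control cells remained, with 19835374 and 15964907 UMIs (unique molecular counts) and medians of 3271 and 4482.5 UMIs per cell. The libraries shared 1 cell barcode. Levels are in CPM, the counts of a class scaled to 1000000 UMIs of that class, which compare a gene between classes and libraries. Cells were clustered with the 37 genes left out, and clusters were named X-like from marker lists. The classes held 80 injured and 118 control secretory-like cells, 82 and 20 alveolar type 1 (AT1)-like cells, 19 and 63 AT2-like cells, 91 and 398 endothelial-like cells, 41 and 79 fibroblast-like cells and 321 and 402 alveolar macrophage-like cells. Macrophage-like cells with complement C1q transcripts numbered 273 (injured) and 1 (control). Each class held counts of all its own markers in both libraries, apart from the single control C1q cell. The AT1-like cluster also had 8 AT2 markers above the other cells, beside 9 AT1 markers. The injured alveolar macrophage-like cells were nearly all in one cluster (320 of 321) and the control ones in 2 others (301 and 101 cells), the smaller of which was shallow.

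Ratios between the libraries were taken in classes with at least 50 cells in both, with AT1-like and AT2-like cells merged as alveolar epithelial-like, and for genes with at least 50 counts in the class over both libraries. A gene was called higher or lower at 1.5-fold or more, by size alone. The threshold counts both libraries, so a gene can be compared because it was abundant in only one of them. Depth was very uneven in several classes. The 3 deepest injured cells held 36.4% of the UMIs of secretory-like, 56.3% of AT2-like and 48.3% of fibroblast-like cells. The alveolar epithelial-like class held 1322942 injured against 149041 control UMIs, and the deepest control AT1-like cell held 41.7% of the UMIs of its 20 cells.

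Of the calls made in the 4 classes compared, those of the inducible defence were all higher and those of the conjugating enzymes all lower in the injured library. Over secretory, alveolar epithelial, endothelial and alveolar macrophage-like cells, 9 of the 37 genes were higher in the injured library in at least 1 class and lower in none, beside 31.0% of the 10399 genes compared in at least 1 class. These were Hmox1, Gclc, Gclm, Txnrd1, Srxn1, Slc7a11, Sod1, Gpx1 and Gpx3, of which 6 belong to the inducible defence. A further 13 were lower in at least 1 class and higher in none, beside 21.2% of all genes, among them the conjugating enzymes Gstm1, Gsta3, Gstp1 and Gstt1 and the oxidising and reducing enzymes Cyp1a1, Cyp4b1, Aldh1a1, Aldh3a1, Cbr1 and Cbr2. The other 3 of these 13 were Prdx6, Sod2 and Cat. Cat was called in merged alveolar cells alone, and neither alveolar cluster gave the call by itself. Fmo2, Prdx4, Ephx1 and Por were higher in one class and lower in another, beside 6.13% of all genes. Gsta4, Gsto1, Cyp2f2, Prdx1, Gpx4, Mgst1 and Sult1a1 stayed under 1.5-fold wherever compared among these 4 classes, beside 41.7% of all genes. With the alveolar clusters taken apart, Gpx4 was called lower in both and Prdx1 higher in AT2-like cells. Mgst1 was called lower in fibroblast-like cells. Cyp1b1, Cyp2s1, Nqo1 and Sod3 had too few counts in all 4 classes. No conjugating enzyme was called higher and no inducible defence gene was called lower in any of the 4 classes. In AT1-like cells alone, however, Gsta4 (104 and 64.9 CPM) and Mgst1 (312 and 114 CPM) were called higher, on 4 and 7 control counts.

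**Figure D1:**
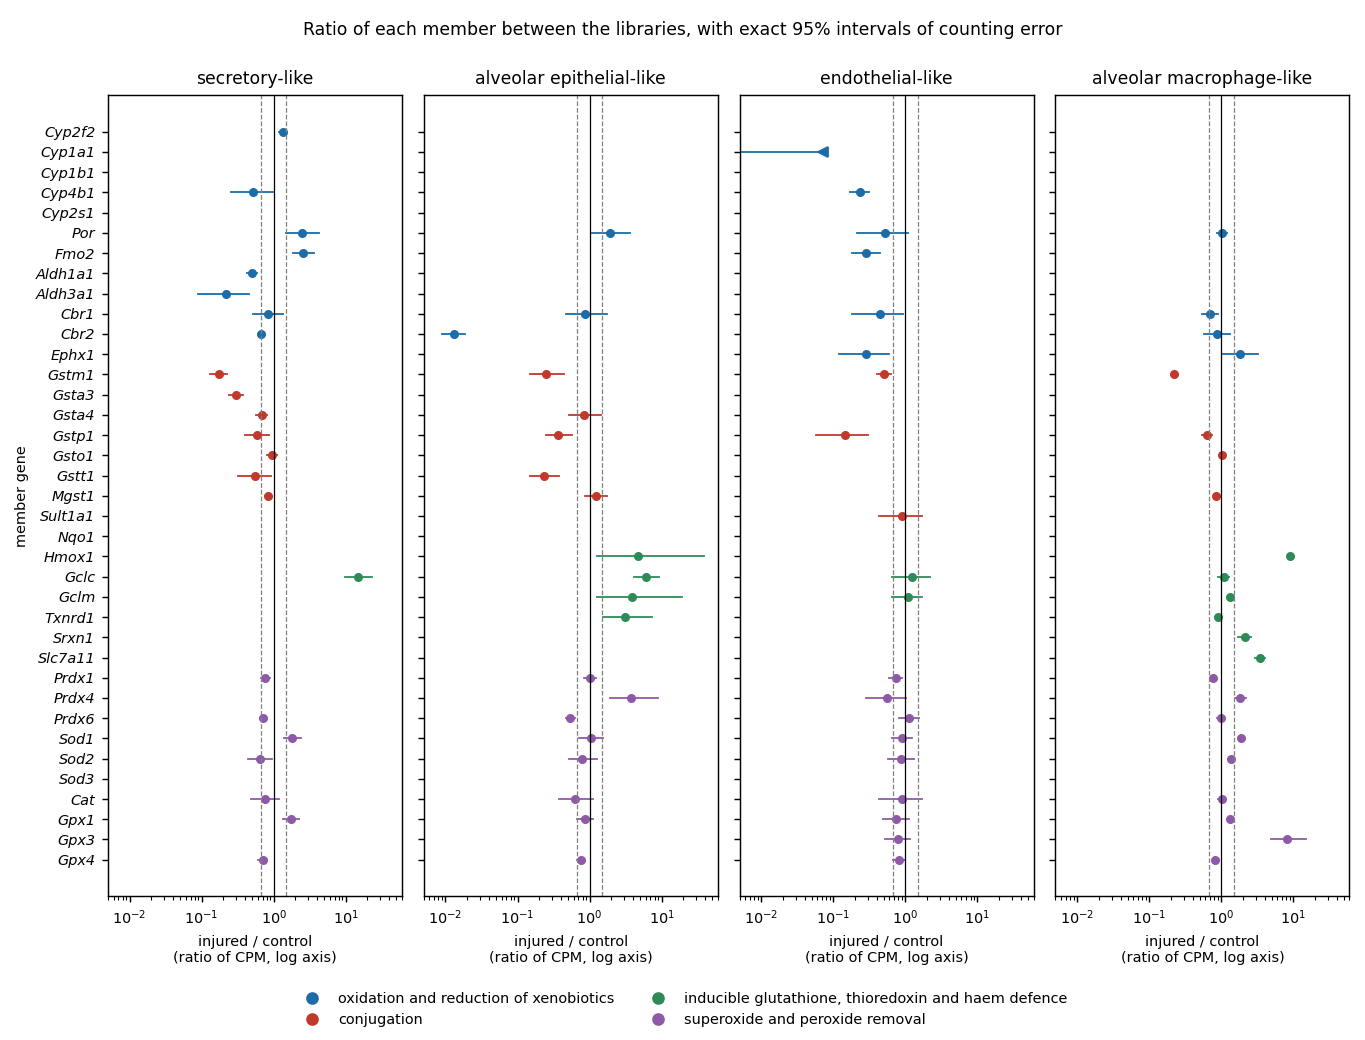
Ratio of CPM between the libraries for each gene with at least 50 counts in the class, in 4 cell classes, on a log axis. Points are ratios and lines exact 95% intervals of counting error, dashed lines mark 1.5-fold, colours mark the role, and the arrowhead for Cyp1a1 marks the upper bound of a ratio whose injured count was 0. Gstm1 and Gstp1 lie left of the lower dashed line in all 4 panels. Every conjugating enzyme lies left of 1 except Mgst1 in alveolar epithelial-like and Gsto1 in alveolar macrophage-like cells, and every inducible gene right of 1 except Txnrd1 in alveolar macrophage-like cells.

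Promoter letters are shown for 4 genes with a core before the start site, 3 of them compared in epithelium and 1 in endothelium. The match decided which genes could be shown, so they do not stand for the others. RefSeq promoters on GRCm38.p6, 250 bases before to 50 bases after a start site, were searched on both strands for the antioxidant response element core TGACNNNGC and the xenobiotic response element core GCGTG. Table entries existed for 31 of the 37 genes, with 40 promoters. The first core was found in 17.5% of these 40 promoters and in 12.4% of all 32851 promoters in the table. The second was found in 45% and 32.4%. By gene, the first core was found for Gsta3, Gclm, Txnrd1, Srxn1, Prdx1, Sod1 and Mgst1. It was not found for Gclc, Hmox1, Slc7a11 or Nqo1. A gene without an entry could not be searched, and bases further from a start site were not searched for any gene. The windows below read 5′ to 3′ on the gene's strand, capitals mark the core or its reverse complement, and none overlaps an annotated exon. In the injured library Gclm and Txnrd1 were higher in merged alveolar epithelial-like cells, Gsta3 was lower in secretory-like cells and Cyp1a1 was at 0. In AT1-like cells alone the interval of the Gclm ratio spanned 1.
Gclm, chr3:122245382-122245471, plus strand: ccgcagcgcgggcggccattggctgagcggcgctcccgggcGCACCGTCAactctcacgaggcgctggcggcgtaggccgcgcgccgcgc
Txnrd1, chr10:82859073-82859162, plus strand: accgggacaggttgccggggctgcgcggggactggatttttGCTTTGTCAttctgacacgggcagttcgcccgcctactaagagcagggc
Gsta3, chr1:21240423-21240512, plus strand: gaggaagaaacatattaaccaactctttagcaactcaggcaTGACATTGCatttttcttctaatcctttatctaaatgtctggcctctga
Cyp1a1, chr9:57697516-57697605, plus strand: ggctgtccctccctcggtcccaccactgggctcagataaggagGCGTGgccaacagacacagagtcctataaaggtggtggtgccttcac
The Txnrd1 window precedes one of several start sites and lies inside that gene's GENCODE M21 span, as the Cyp1a1 window does in its own gene, while the Gclm and Gsta3 windows precede theirs. Genes that were higher and genes that were lower both held the first core, since Gsta3 has it too. In the Sod1 promoter the letters GCGTGGTCA hold both cores. A match says only that these letters are present.

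The roles were spread unevenly over the cell classes. The class with the highest level was the same in both libraries for 23 of the 37 genes, judged among the 7 classes with AT1-like and AT2-like cells kept apart. A class needed at least 10 cells in a library, a minimum set after the class sizes were known, so the single control C1q cell did not count. In the control library secretory-like cells held the highest level of 10 genes, alveolar macrophage-like cells of 7, AT1-like and fibroblast-like cells of 6 each, AT2-like cells of 5 and endothelial-like cells of 3. In secretory-like cells these were Cyp2f2, Cbr2, Aldh1a1, Aldh3a1, Gsta3, Gsta4, Gsto1 and Mgst1, with Cyp2s1 and Nqo1 on 1 and 2 counts. Ciliated-like cells were not among the 7 classes. The 14 control ones held 134 Aldh1a1, 70 Cyp2f2 and 51 Cyp2s1 counts in 61690 UMIs. Secretory-like cells held 585, 646 and 1 counts in 914716 UMIs, so their levels of these genes were below the ciliated-like ones. For Cbr2, Gsta4 and Aldh3a1 the secretory-like level was the higher. Macrophage-like cells led in the inducible genes Hmox1, Gclm, Txnrd1, Srxn1 and Slc7a11 and in Prdx1 and Gpx1. Fibroblast-like cells led in the secreted enzymes Sod3 and Gpx3 and in Fmo2, Gstm1, Cyp1b1 and Prdx4, and endothelial-like cells led in Cyp1a1, Cyp4b1 and Ephx1. The intervals of first and second place overlapped for 16 of the 37 genes in the control and 22 in the injured library. In the control library these included Hmox1, Txnrd1, Srxn1, Gclm (75.6 CPM in macrophage-like and 74.0 CPM in endothelial-like cells of the control library) and Ephx1 (89.7 CPM in endothelial-like and 82.2 CPM in fibroblast-like cells).

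**Figure D2:**
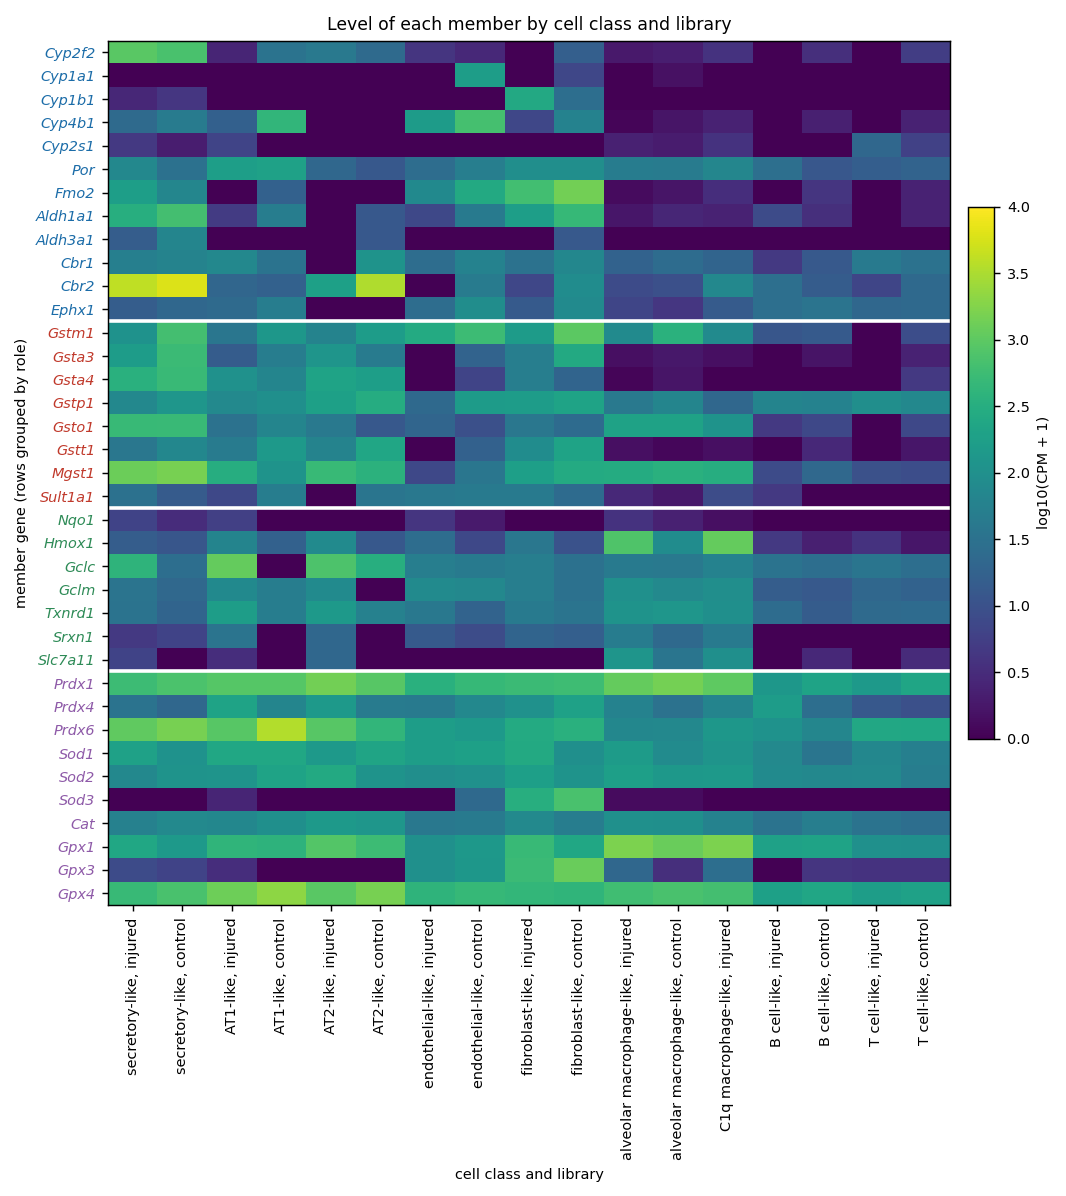
Level of each of the 37 genes as log10(CPM + 1) in 9 cell classes of each library, with rows grouped by role from top to bottom (oxidation and reduction of foreign chemicals, conjugation, inducible defence, superoxide and peroxide removal). B cell-like and T cell-like columns show the level in cells that are not known for most of these enzymes. The brightest cells are Cbr2 in secretory-like cells, at 4124 and 6114 CPM. The single control C1q cell is left out.

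Secretory-like cells held high levels of the club cell enzymes in both libraries, and 4 of 7 conjugating enzymes compared were lower in the injured one. Of the 23 genes compared, 5 were higher (Fmo2, Gclc, Gpx1, Por, Sod1) and 8 lower (Aldh1a1, Aldh3a1, Cyp4b1, Gsta3, Gstm1, Gstp1, Gstt1, Sod2) in the injured library. Over all 1341 genes compared in this class, 30.4% were higher and 9.69% lower. The median log2 ratio, with 10 CPM added to both sides, was -0.50 for the 23 genes and 0.13 for all genes of the class.

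Among the conjugating enzymes, which join glutathione to reactive chemicals, Gstm1 (chr3:108012255-108017973, minus strand, GRCm38) stood at 109 CPM (83.3–140) in injured and 626 CPM (576–680) in control secretory-like cells. This was 5.75-fold (4.41–7.62) lower in the injured library. Gsta3 stood at 161 and 530 CPM, 3.30-fold (2.63–4.18) lower. Both pairs of levels lay well apart. Gstp1 stood at 73.2 and 124 CPM, and Gstt1 at 37.5 and 68.9 CPM. Gsta4, which acts on lipid peroxidation products, stood at 345 and 506 CPM, 1.47-fold (1.24–1.75) lower and just under the size rule. Gsto1 stood at 491 and 518 CPM, and 204 of its 474 control counts came from 1 cell. Mgst1, a membrane-bound glutathione transferase, stood at 1262 and 1511 CPM.

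Among the oxidising and reducing enzymes, Cbr2, the lung carbonyl reductase, was the most abundant of the 37 genes, at 4124 CPM (3957–4295) and 6114 CPM (5955–6277). It was 1.48-fold (1.41–1.56) lower in the injured library, just inside the limit of 1.5. Cyp2f2, the club cell cytochrome P450, did not follow: it stood at 946 CPM (867–1030) and 706 CPM (653–763), a ratio of 1.34 (1.19–1.51). However, 239 of its 530 injured counts came from 1 cell. The aldehyde dehydrogenases were both lower, Aldh1a1 at 321 and 640 CPM and Aldh3a1 at 14.3 and 65.6 CPM, the latter from 8 and 60 counts. Fmo2, a flavin monooxygenase, stood at 173 and 67.8 CPM, 2.55-fold (1.84–3.57) higher. Of its 97 injured counts 31 came from 1 cell, and after thinning the ratio was 1.05, so the call was lost. Por, the electron donor of cytochromes P450, stood at 73.2 and 29.5 CPM, with 17 of its 41 injured counts in 1 cell, and its ratio was 1.23 without the 3 deepest cells of each library.

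Gclc, the catalytic subunit of the enzyme that limits glutathione synthesis, stood at 398 CPM (348–454) in injured and 27.3 CPM (17.7–40.4) in control secretory-like cells. Of its 223 injured counts, 124 came from 1 cell, and without the 3 deepest cells of each library the levels were 89.8 and 28.6 CPM. After each cell was thinned to 1000 UMIs, 2 of 62 injured secretory-like cells held a Gclc UMI, 3.23% (0.393–11.2), and 3 of 58 injured B cell-like cells, 5.17% (1.08–14.4). The 2 intervals overlapped widely, so these shares could not be told apart. Injured B cell-like and T cell-like cells held Gclc at 31.8 to 35.0 CPM, and whether this is mere background was not tested. The unthinned shares were 26.2% and 13.8%. Median depths were 2359 and 3381.5 UMIs.

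Sod1 and Gpx1 of the superoxide and peroxide enzymes were higher in the injured library. Sod1, the cytosolic superoxide dismutase, stood at 195 and 107 CPM, and Gpx1, the cytosolic glutathione peroxidase, at 239 and 139 CPM. Markers of neutrophils summed to 550 CPM in injured and 45.9 CPM in control secretory-like cells, with 4 and 6 of 10 at 0, and those of alveolar macrophages to 323 and 101 CPM, with 5 and 3 of 13 at 0. Their part in these values was not tested. Secretory markers made up 47.6% of injured and 60.1% of control UMIs of this class, mostly Scgb1a1, and CPM of all other genes depend on that share. Without these markers in the total the median log2 ratio of all genes moved to -0.23, and 3 genes were higher and 16 lower. Sod1 and Gpx1 then lost their call, and the 8 genes called lower kept it.

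In alveolar epithelial-like cells all 4 inducible defence genes compared, of 7, were higher in the injured library, and 3 of 5 conjugating enzymes compared were lower. Of 20 genes compared, 6 were higher (Gclc, Gclm, Hmox1, Por, Prdx4, Txnrd1) and 6 lower (Cat, Cbr2, Gstm1, Gstp1, Gstt1, Prdx6). Among all 4745 genes compared in this class 52.8% were higher and 12.1% lower, so the count of higher genes is below the background share. The injured class was mostly AT1-like and the control class mostly AT2-like, so cell type and library cannot be told apart in the merged value. The clusters are given apart below, but AT1-like cells also differed in their markers. AT1 markers summed to 15512 CPM in injured and 33709 CPM in control AT1-like cells. Ager stood at 4550 and 12037 CPM and the AT2 marker Sftpc at 4315 and 114 CPM. Cell state and library thus cannot be told apart in AT1-like ratios either. With median-of-ratios size factors the median log2 ratio of all genes in this class moved from 0.57 to 0.27.

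Gclc (chr9:77754535-77794485, plus strand, GRCm38) was the inducible gene with the highest epithelial level. AT1-like cells held 1458 counts, 1144 CPM (1086–1205), in the injured library and 0 counts in the control library, at least 23.5-fold higher with the control class set at 3 counts. The control class had only 61645 UMIs over 20 cells. In AT2-like cells Gclc stood at 756 CPM (532–1042) and 320 CPM (213–463), from 37 and 28 counts. Both clusters thus had more Gclc in the injured library. In thinned cells 26 of 65 injured AT1-like cells held a Gclc UMI, 40% (28.0–52.9), and 0 of 10 control cells, which allows a share of up to 30%. The corresponding shares in B cell-like cells were 5.17% and 3.50%, and the unthinned AT1-like shares were 67.1% and 0%.

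The other inducible genes rested on few control counts. In AT1-like cells Txnrd1, a thioredoxin reductase, stood at 169 and 48.7 CPM (215 and 3 counts), Gclm, the regulatory subunit beside Gclc, at 77.7 and 48.7 CPM (99 and 3 counts), and Hmox1, haem oxygenase 1, at 62.0 and 16.2 CPM (79 and 1 counts). Prdx4, the peroxiredoxin of the endoplasmic reticulum, stood at 207 and 64.9 CPM (264 and 4 counts). Intervals of the ratios were wide, from 0.531 to 7.87 for Gclm, 1.17 to 16.9 for Txnrd1 and 0.667 to 153 for Hmox1. AT2 markers summed to 9554 and 1233 CPM in AT1-like cells, with 1 and 5 of 12 at 0, and ciliated cell markers to 176 and 2012 CPM, with 4 and 8 of 10 at 0. Their part in these values was not tested. AT2-like cells held 7 and 5 counts of Txnrd1, and 7 and 4 of Prdx4.

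Cbr2 differed most between the alveolar clusters. It stood at 184 CPM (84.1–349) in injured and 3341 CPM (2969–3747) in control AT2-like cells, 18.2-fold (9.44–40.1) lower, from 9 and 292 counts. In AT1-like cells it stood at 19.6 and 16.2 CPM, the control level from 1 count, so its ratio of 1.21 in AT1-like cells was not below 1. Thinned AT2-like cells held a Cbr2 UMI in 2 of 11 injured and 38 of 42 control cells. The 19 injured AT2-like cells carried secretory markers at 64977 CPM against 9062 CPM in control cells, with 7 and 3 of 10 at 0, and the part of this was not tested.

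Gstm1 and Gstt1 were lower in the injured library in both alveolar clusters. Gstm1 stood at 36.1 and 130 CPM in AT1-like and 61.3 and 160 CPM in AT2-like cells. Gstt1 stood at 44.7 and 146 CPM in AT1-like and 61.3 and 229 CPM in AT2-like cells. Control counts were 8 and 14 for Gstm1 and 9 and 20 for Gstt1. The interval of the ratio spanned 1 for Gstm1 in AT2-like cells, at 0.0705 to 1.37, and lay below 1 in the other three. Prdx6, a peroxiredoxin that also repairs oxidised phospholipids, went opposite ways. It stood at 912 CPM (860–966) and 3471 CPM (3022–3969) in AT1-like cells, 3.81-fold lower, with 59 of 214 control counts in 1 cell. In AT2-like cells it stood at 920 CPM (671–1231) and 423 CPM (298–584), 2.17-fold higher, with 15 of 45 injured counts in 1 cell. The merged alveolar call of Prdx6 was lost with cells weighted equally, after thinning and without the 3 deepest cells of each library. Gpx4, which protects membrane lipids, was lower in both, at 1320 and 2060 CPM in AT1-like and 940 and 1499 CPM in AT2-like cells. In AT1-like cells alone 8 of 19 genes were higher and 5 lower (background 32.4% and 19.0%), and in AT2-like cells alone 3 of 7 were higher and 2 lower (background 15.2% and 25.1%).

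Endothelial-like cells showed lower levels of the enzymes that oxidise foreign chemicals, and none of the 37 genes was called higher there. Of 20 genes compared, 9 were lower (Cbr1, Cyp1a1, Cyp4b1, Ephx1, Fmo2, Gstm1, Gstp1, Por, Prdx4) and 0 higher, against 16.9% lower and 16.2% higher over all 4761 genes compared. All 6 compared genes of the oxidising and reducing group were among the 9. The median log2 ratio was -0.41 for the 20 genes and -0.00 for all genes.

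Cyp1a1 (chr9:57687928-57703824, plus strand, GRCm38), the classical target of the aryl hydrocarbon receptor, had 0 counts in all 2302 injured cells and 186 counts in the control library, 180 of them in endothelial-like cells. Its level in control endothelial-like cells was 166 CPM (143–193), against 0 counts in 312730 injured UMIs, which is at least 17.3-fold lower at 3 counts for the class. Both control endothelial clusters held it, at 170 and 165 CPM. In thinned cells 33 of 240 control cells held a UMI, 13.8% (9.66–18.8), and 0 of 58 injured cells did, which allows a share of up to 5.17%. Unthinned shares were 17.8% and 0%. No B cell-like or T cell-like cell of either library held a Cyp1a1 UMI. Median depths of endothelial-like cells were 1435 and 1278 UMIs, below those of B cell-like cells at 3381.5 and 4486.

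Cyp4b1, a lung cytochrome P450, stood at 157 CPM (116–207) and 668 CPM (620–718), 4.26-fold (3.19–5.81) lower. Thinned shares were 5 of 58 injured cells, 8.62% (2.86–18.98), and 93 of 240 control cells, 38.8% (32.5–45.2), with unthinned shares of 17.6% and 48.5% and at most 1 B cell-like cell per library in the thinned set. Fmo2 stood at 76.7 and 266 CPM, 3.47-fold (2.29–5.51) lower. Ephx1, the microsomal epoxide hydrolase, stood at 25.6 and 89.7 CPM, from 8 and 97 counts. Levels of Ephx1 in B cell-like and T cell-like cells lay between 20.4 and 33.8 CPM, so the injured endothelial level was within that range. Alveolar macrophage-like cells had less in both libraries, so for this gene the range may not be mere background, which was not tested. Cbr1 (8 and 63 counts), Por (8 and 54) and Prdx4 (13 and 80) were called on few injured counts, with upper ends of the ratio's interval at 0.92, 1.08 and 1.02.

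Of the conjugating enzymes, Gstp1 stood at 22.4 CPM (7 counts) and 155 CPM, 6.94-fold (3.30–17.5) lower, and Gstm1 at 275 CPM (220–340) and 544 CPM (501–589), 1.98-fold (1.57–2.51) lower. Without the shallow endothelial cluster the ratio of Gstm1 was 0.75, under the size rule. The inducible genes Gclc and Gclm stood at 51.2 and 41.6 CPM and at 79.9 and 74.0 CPM. In both cases the interval of the ratio, 0.65 to 2.22 and 0.66 to 1.71, spanned 1. The peroxide and superoxide genes other than Prdx4 lay between ratios of 0.74 (Prdx1 and Gpx1) and 1.14 (Prdx6). Secretory markers summed to 550 and 2389 CPM in this class, with 6 and 3 of 10 at 0, and fibroblast markers to 365 and 1437 CPM, with 4 and 1 of 12 at 0. Fmo2 is highest in fibroblast-like cells among the classes described, and the part of these markers in its value was not tested.

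**Figure D3:**
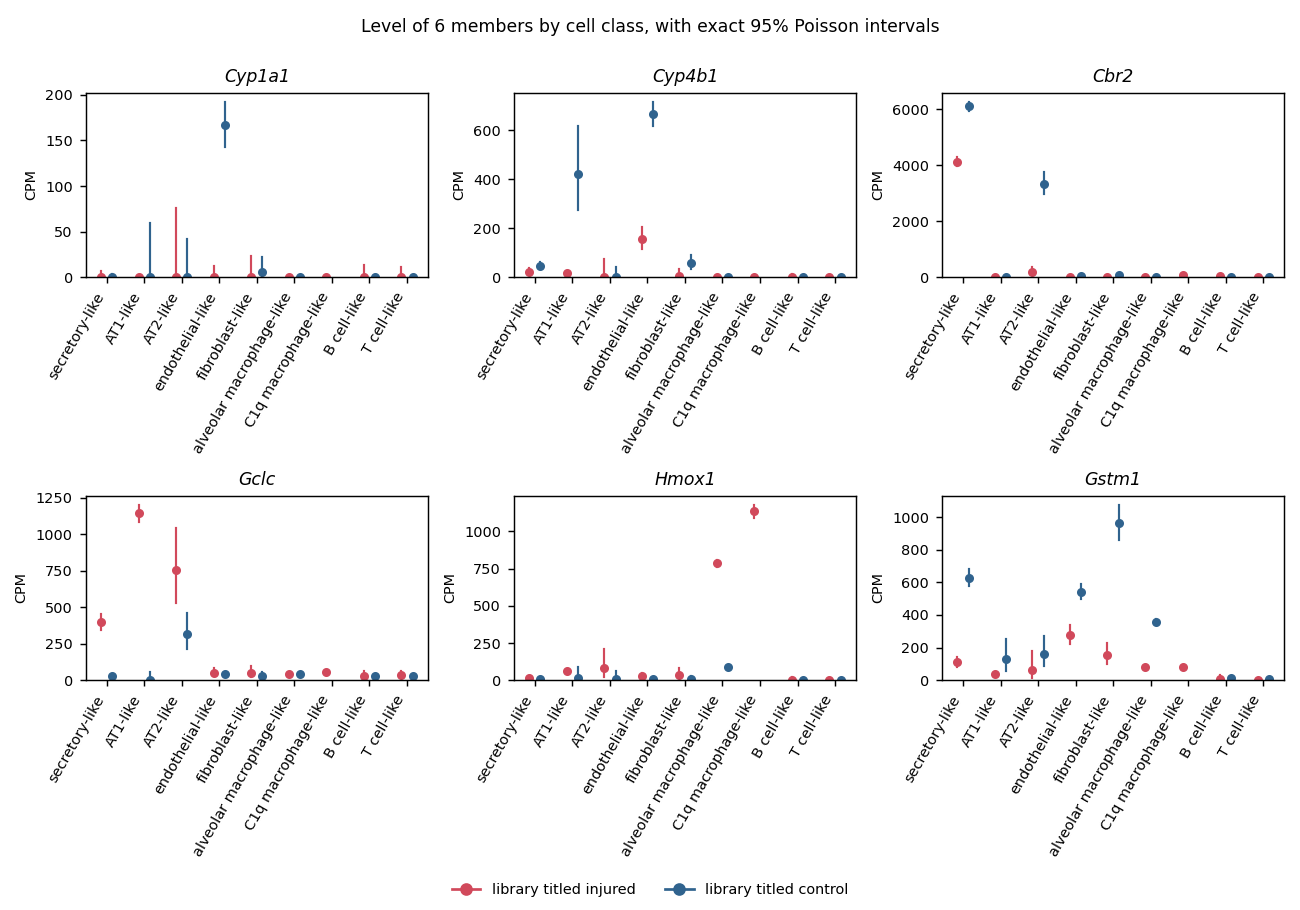
Level of 6 genes in CPM (linear axes from 0) in 9 cell classes, with the injured library left of the control library in each pair and exact 95% Poisson intervals. Cyp1a1 appears in control endothelial-like cells at 166 CPM and at 0 in every injured class. Hmox1 reaches 784 CPM in injured alveolar macrophage-like and 1134 CPM in injured C1q macrophage-like cells.

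Alveolar macrophage-like cells were the deepest class, with 6692930 injured and 6059090 control UMIs, and Hmox1, Slc7a11 and Srxn1 of the inducible defence stood higher in the injured library there. Of 23 genes compared, 7 were higher (Ephx1, Gpx3, Hmox1, Prdx4, Slc7a11, Sod1, Srxn1) and 2 lower (Gstm1, Gstp1). Over all 9432 genes compared 11.7% were higher and 18.6% lower. The median log2 ratio was 0.03 for the 23 genes and -0.07 for all genes.

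Hmox1 (chr8:75093621-75100589, plus strand, GRCm38), which breaks down haem, stood at 784 CPM (763–806) and 86.2 CPM (78.9–93.9), 9.10-fold (8.32–9.98) higher in the injured library. In thinned cells 90 of 320 injured cells held a UMI, 28.1% (23.3–33.4), and 22 of 362 control cells, 6.08% (3.85–9.06), with unthinned counts of 289 of 321 and 215 of 402 cells. B cell-like cells gave 0 of 58, which allows up to 5.17%, and 1 of 314. Median depths were 19642 and 16244.5 UMIs in alveolar macrophage-like and 3381.5 and 4486 UMIs in B cell-like cells. Injured C1q macrophage-like cells had 1134 CPM (1089–1180), above the alveolar macrophage-like level, with 103 of 239 thinned cells holding a UMI, 43.1% (36.7–49.6). The 2 macrophage classes held 61.3% and 28.1% of all Hmox1 counts of the injured library. Within alveolar macrophage-like cells the C1q macrophage markers summed to 879 and 143 CPM, with 0 and 2 of 10 at 0, and neutrophil markers to 535 and 128 CPM, with 1 of 10 at 0 in each library. Their part in the values of Hmox1 and Slc7a11 was not tested.

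Slc7a11, the cystine importer that feeds glutathione synthesis, stood at 121 CPM (113–130) and 35.3 CPM (30.7–40.4), 3.42-fold (2.94–3.998) higher. Most of its counts lay elsewhere, since neutrophil-like cells held 35.2% (injured) and 72.3% (control) of them, at 731 and 2349 CPM. The neutrophil-like cells came from unlike clusters, one with 426 injured and 9 control cells and another with 161 and 117, so the neutrophil values compare different mixes. Srxn1, which restores oxidised peroxiredoxins, stood at 46.3 and 22.0 CPM, 2.11-fold (1.72–2.61) higher. Gclm stood at 101 and 75.6 CPM (ratio 1.34, 1.19–1.51), Gclc at 44.2 and 40.9 CPM and Txnrd1 at 114 and 127 CPM, all under the size rule. Nqo1, often used as a reporter of Nrf2, had only 19 and 8 counts here and 51 and 15 in the whole libraries.

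Among peroxide and superoxide enzymes of macrophages, Gpx1 stood at 1608 CPM (1578–1639) and 1199 CPM (1172–1227), a ratio of 1.34. Prdx1 went the other way at 1131 and 1463 CPM, a ratio of 0.77, and was the more abundant of the pair in the control library. Neither reached 1.5-fold, although their intervals exclude 1. Sod1 stood at 159 and 84.3 CPM, 1.88-fold (1.69–2.09) higher, Prdx4 at 57.7 and 31.5 CPM, and Sod2, the mitochondrial dismutase, at 181 and 135 CPM. Gpx3, a secreted peroxidase, stood at 20.5 and 2.48 CPM from 137 and 15 counts, 8.27-fold (4.84–15.2) higher, while fibroblast-like cells of the same libraries had 540 and 1199 CPM. Fibroblast markers summed to 349 and 117 CPM in macrophage-like cells, with 4 and 1 of 12 at 0, and their part in the Gpx3 value was not tested. Ephx1 stood at 5.98 and 3.30 CPM from 40 and 20 counts, below the 20.4 to 33.8 CPM of B cell-like and T cell-like cells.

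Gstm1 was the conjugating enzyme that differed most in macrophages, at 79.9 CPM (73.3–87.0) and 358 CPM (343–374), 4.48-fold (4.07–4.93) lower in the injured library. Thinned shares were 9.06% (6.15–12.8; 29 of 320) and 27.3% (22.8–32.2; 99 of 362), unthinned 54.5% and 81.3%. The shallow and the deep control cluster stood at 348 and 358 CPM. Injured C1q macrophage-like cells were at 81.6 CPM, near the injured alveolar macrophage-like level. Gstp1 stood at 40.6 and 64.9 CPM, 1.596-fold (1.36–1.87) lower, below the B cell-like and T cell-like levels of 57.6 to 93.3 CPM in the injured case, and its call was lost with size factors. Reads of Gstp1 may be shared with its near-identical neighbour Gstp2. Gsto1 (204 and 202 CPM) and Mgst1 (290 and 349 CPM), both abundant here, stayed under 1.5-fold.

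Fibroblast-like cells had 41 injured cells, under the minimum of 50, so their ratios were added after the data were seen. The secreted and conjugating enzymes typical of this class were lower in the injured library. Of 17 genes compared, 9 were lower (Aldh1a1, Fmo2, Gpx3, Gsta3, Gstm1, Gstt1, Mgst1, Prdx4, Sod3) and 4 higher (Cyp1b1, Gpx1, Sod1, Sod2), beside 25.6% lower and 22.8% higher over all 1588 genes. Fmo2 stood at 614 CPM (499–748) and 1430 CPM (1304–1566), Gpx3 at 540 CPM (432–666) and 1199 CPM (1083–1323), and Sod3, the extracellular dismutase, at 316 CPM (236–416) and 706 CPM (618–803). All 3 were lower by a like factor, 2.33-fold, 2.22-fold and 2.23-fold. The injured values leaned on few cells: the top cell held 38 of 99 Fmo2, 12 of 87 Gpx3 and 18 of 51 Sod3 counts. Only 7 injured cells held any Sod3. Gstm1 stood at 155 and 965 CPM, 6.22-fold (4.14–9.76) lower, and Gsta3 at 49.6 and 265 CPM. Cyp1b1, an aryl hydrocarbon receptor target of mesenchymal cells, stood at 254 and 27.4 CPM, but 29 of its 41 injured counts came from 1 cell. Alveolar macrophage markers summed to 3778 CPM in injured and 225 CPM in control fibroblast-like cells, with 2 and 4 of 13 at 0. Gpx1, Sod1 and Sod2 are also macrophage transcripts. Secretory markers summed to 533 and 8815 CPM, with 6 and 5 of 10 at 0, and Gsta3 is abundant in secretory-like cells. The part of these markers in the values was not tested.

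**Figure D4:**
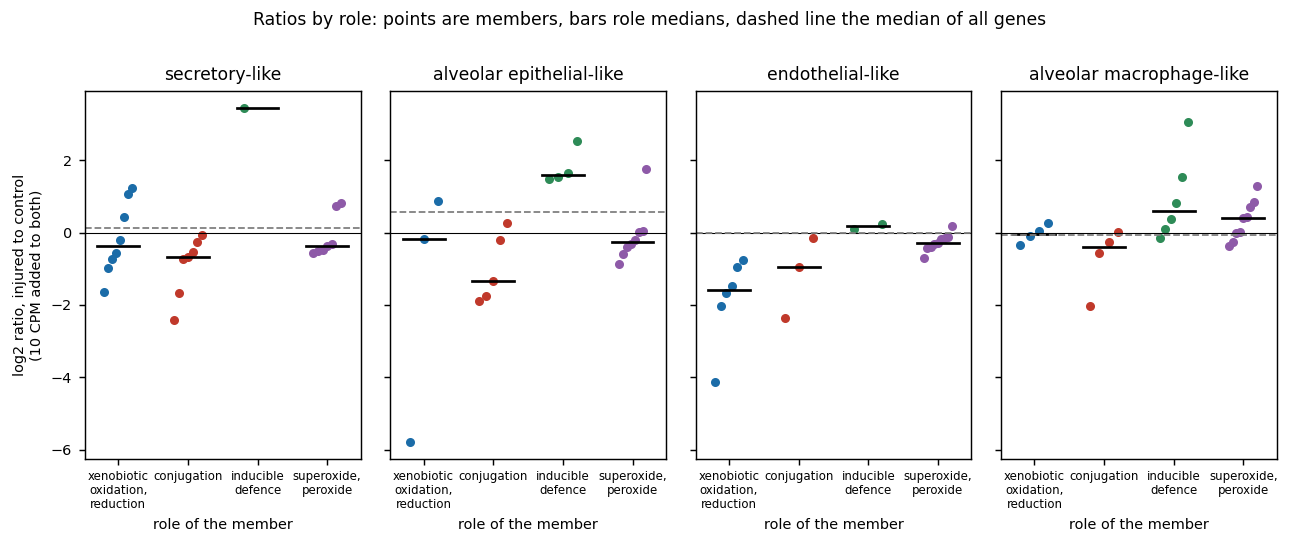
Log2 ratio of injured to control level, with 10 CPM added to both sides, for each compared gene, grouped by role in 4 cell classes. Points are genes, black bars role medians and the dashed line the median of all genes of the class. The conjugation medians lie below the dashed line in all 4 panels, from -1.33 in alveolar epithelial-like to -0.41 in alveolar macrophage-like cells, and the inducible defence medians above it.

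The median log2 ratio of the inducible defence was the highest of the 4 roles in each of the 4 classes, and that of the conjugating enzymes the lowest in 3, with oxidation and reduction lowest in endothelial-like cells at -1.58. The conjugating enzymes had medians of -0.68 in secretory, -1.33 in alveolar epithelial, -0.96 in endothelial and -0.41 in alveolar macrophage-like cells, over 7, 5, 3 and 4 genes. The inducible defence had 3.45, 1.59, 0.17 and 0.60, over 1, 4, 2 and 6 genes, the first being Gclc alone. Medians of the peroxide and superoxide enzymes were -0.38, -0.26, -0.29 and 0.40. These roles and medians are a description of genes chosen with earlier results known. Gstm1 and Gstp1 were the 2 genes called lower in all 4 classes, of 12 compared in all 4, beside 0.626% of the 1119 genes so compared. The alveolar call of Gstp1 came from the merged class: it stood at 75.4 and 97.3 CPM in AT1-like cells, under 1.5-fold, and at 184 and 297 CPM in AT2-like cells, from 9 and 26 counts.

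In the whole libraries 11 of the 37 genes were higher and 9 lower in the injured one, beside 19.4% and 14.3% of 13077 genes. In a sum over a library fewer cells of a type and less RNA per cell cannot be told apart. Cyp1a1, for example, was at least 77.0-fold lower in the whole library and at least 17.3-fold lower within endothelial-like cells, which numbered 91 and 398. Fmo2 was not called in the whole library although it was lower in fibroblast-like and endothelial-like cells, and 74.9% of its injured counts lay in 21 mesothelial-like cells, of which the control library had 1. Cyp2s1 was 3.52-fold higher in the whole library, with 38.3% of its injured counts in the same mesothelial-like cells and 34.9% in ciliated-like cells.

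Other genes of these pathways were taken from a list of 111, of which 110 were in the matrices. In secretory-like cells 12 of 42 compared were higher and 11 lower, in alveolar epithelial-like cells 15 and 10 of 51, in endothelial-like cells 5 and 10 of 40, and in alveolar macrophage-like cells 17 and 12 of 69. Over all genes compared, 30.4% were higher and 9.69% lower in secretory-like and 52.8% and 12.1% in alveolar epithelial-like cells. The shares were 16.2% and 16.9% in endothelial-like and 11.7% and 18.6% in alveolar macrophage-like cells. The metallothionein Mt1, which binds zinc and copper, was higher in secretory-like (266 and 48.1 CPM), endothelial-like (86.3 and 22.2 CPM) and fibroblast-like cells (2959 and 393 CPM). Aldh2, the mitochondrial aldehyde dehydrogenase, was lower in those classes, at 157 and 447 CPM, 432 and 914 CPM, and 223 and 962 CPM.

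In alveolar macrophage-like cells Glrx and Gsr were among the 4 highest ratios of these other genes. Glrx, a glutaredoxin, stood at 227 and 55.3 CPM, 4.11-fold (3.65–4.64) higher, and Gsr, glutathione reductase, at 503 and 244 CPM, 2.06-fold (1.93–2.19) higher. Of the 15 compared genes for glutathione, thioredoxin and NADPH supply, 7 were higher and 2 lower, with a median log2 ratio of 0.24. Over all genes compared in this class 11.7% were higher and 18.6% lower. The transcript of Nrf2 itself, Nfe2l2, was 2.04-fold (1.85–2.25) lower at 99.1 and 202 CPM, and Maff, one of its small Maf partners, stood at 27.6 and 73.9 CPM. In alveolar epithelial-like cells Pgd, an NADPH-producing enzyme, stood at 243 and 33.6 CPM and Gpx2, an epithelial glutathione peroxidase, at 124 and 20.1 CPM, from 5 and 3 control counts. The ferritin chains Fth1 and Ftl1, which store iron, were lower there at 2552 and 9387 CPM and at 2177 and 4999 CPM, and also in AT2-like cells alone at 6030 and 13204 CPM and at 4129 and 7014 CPM. In endothelial-like cells the highest ratios included Tiparp, another aryl hydrocarbon receptor target, at 70.4 and 28.7 CPM from 22 and 31 counts, opposite in direction to Cyp1a1.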

How the data were processed

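2 single-cell 3′ RNA libraries of lung digest were deposited as raw UMI counts per gene and cell barcode, made by the authors with Cell Ranger 4.0.0, per the file headers, on GRCm38/mm10, per the submitters' processing notes. The same notes list STAR 2.7.2c and featureCounts 1.6.3 with no role. Whether counting used strand was not given in the sources used here.

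Cells needed at least 500 UMIs, 200 genes and at most 15% mitochondrial counts, and 44 doublets per library were removed by simulated-doublet scoring. Cells were clustered (Leiden, resolution 1) without the 37 genes, with Python 3.11.15, scikit-learn 1.9.0 and leidenalg 0.10.2. Counts were summed per class and library. Intervals are exact Poisson for CPM, exact conditional for ratios and Clopper-Pearson for shares. A count of 0 was set at 3 counts per class. Shares of cells were compared after thinning to 1000 UMIs, which left out 276 injured and 340 control cells. Named genes were all 37 members with at least 50 counts in a class that were past 1.5-fold or highest there, and up to 4 highest and 4 lowest other pathway genes per class. Members under 1.5-fold and pathway values in a second class were also named after their values were seen. Scripts were tested on simulated data. Alternatives covered filters, clustering, scaling, thinning, pseudocounts and count minimums. The members and lists were chosen with earlier results of these data known.

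Gstp1 may share reads with its near-identical copy Gstp2. Cyp2f2, Cyp2s1, Gclm and Sult1a1 overlap annotated genes on the opposite strand. Gclm and Ephx1 overlap pseudogenes on the same strand that are not in the matrices. Their counts may be affected, which was not tested.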

Additional observations from a re-analysis of the deposited data

Results flagged for a closer look

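Fmo2, a flavin monooxygenase, had a log2 ratio of injured to control of 1.24 in secretory-like and -1.67 in endothelial-like cells. The secretory call of Fmo2 was lost after thinning, at a ratio of 1.05. Ephx1, the epoxide hydrolase, had 0.26 in alveolar macrophage-like and -1.49 in endothelial-like cells. Both stand here because the direction was opposite in 2 cell classes. With 1 library per group the difference between classes was not tested.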

How the results depend on the processing

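No paired analysis was possible because each group had 1 library. Of 715 gene ratios under other settings 6 reversed, and of 201 counts and medians 28 moved. Other pseudocounts and lower count minimums could not reverse the ratio or change the call of a gene already compared. Those settings are thus no check on the calls. The call held in every setting for 7 of 13 genes in secretory, 7 of 12 in alveolar epithelial, 5 of 9 in endothelial and 8 of 9 in alveolar macrophage-like cells. In secretory-like cells size factors gave 3 higher, 17 lower and a median of -1.19 (all genes -0.50), secretory markers left out of the total 3, 16 and -0.89, and thinning 0 and 5. At least 10 counts gave 9 higher, no minimum 12, and a minimum on the mean level 9. In endothelial-like cells the count higher was 1 with at most 10% mitochondrial counts, 1 with cells weighted equally and 1 without the shallow cluster. There it was 4 higher and 15 lower with at least 10 counts, 6 and 16 with no minimum, and 2 lower after thinning. In alveolar macrophage-like cells 1 was lower with size factors, 1 after thinning and 8 with no minimum. In alveolar epithelial-like cells thinning gave 1 higher and 1 lower, no minimum 12 and 13, and AT2-like cells alone 3 and 2. Thinning and count minimums change how many genes are compared. Reversed log2 ratios were Por in secretory-like cells (-0.19 with cells weighted equally, -0.11 thinned), Cbr2 (0.18) and Por (-0.17) in AT1-like cells alone, and Prdx6 (1.10) and Cat (0.17) in AT2-like cells alone. The cause was not tested. The lower clustering resolution for alveolar cells, and clustering each library alone for secretory and alveolar cells, gave no injured cells and no value. Fewer than 50 counts left many genes uncompared, mostly in the shallow classes.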
